A study of Mus musculus with 31 samples.

Results

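Cholesterol synthesis, uptake and transport in the mouse hippocampus was followed through 32 genes that were chosen by name for their function. There were 18 enzymes of synthesis, 6 regulators, and 8 genes of uptake, transport and turnover. Probe sets listed for a single gene measured 29 of the 32, among 12844 genes tested in all. Acat2, Nr1h2 and Soat1 have no such probe set in the annotation used here and were not analysed.

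The values come from hippocampal total RNA of 31 C57BL/6 mice on Affymetrix arrays, 1 mouse for each array. Glud1 Tg mice over-express glutamate dehydrogenase 1 in neurons of the central nervous system, and wt mice have the same strain background without the transgene. Both genotypes were studied at 10 days and at 4.5, 9, 14.5 and 20 months of age, with 3 mice in each group and 4 in the wt group at 10 days. All mice were male.

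Brain cholesterol is made within the brain, because lipoprotein cholesterol does not pass the blood-brain barrier. Acetyl-CoA is built up to mevalonate, isoprenoid units, squalene and lanosterol, and lanosterol is then trimmed to cholesterol. The transcription factors SREBP1 and SREBP2 turn on the genes of the pathway when membrane sterol is low, with SCAP as their escort and the INSIG proteins as the anchors that hold them back. Cells of the oligodendrocyte lineage use much of this cholesterol for myelin, astrocytes pass it on in particles that carry apolipoprotein E, and neurons clear it with the hydroxylase CYP46A1.

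For a gene with several probe sets the brightest on average is shown, as log2 signal after quantile normalization over the 31 arrays. A change is a difference of log2 values, and it was called at an adjusted p under 0.05 in limma. The error given with a change is its standard error, and SD is named where it is meant. All 29 measured genes lay above the array median of 6.84 on all 31 arrays, so the filter on low values chose none of them. The table has no detection calls. The signals are intensities and not counts, and the parts of array noise and of the mice in the spread within a group were not told apart. The labels of the genotypes could not be checked on Glud1 itself, since its probe sets lie outside the part that the transgene carries. Markers of hippocampal neurons were present at every age, and their 6 genes had a mean log2 signal from 10.98 to 11.73 over all mice. The mean of the choroid plexus markers ran from 6.35 to 11.70 between mice, and their summed signal from 769 to 48457, with a wide range at each age.

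Every measured enzyme of cholesterol synthesis fell between 10 days and 4.5 months. The decrease was called for 17 of 17, at a background of 35.5% of all genes tested that fell and 31.2% that rose. The median change of the enzymes was -0.94 on the log2 scale, from -2.15 for Fdps to -0.33 for Ebp, beside a median of -0.04 over all genes tested. All 17 fell in the wt mice taken alone, where 30.1% of genes fell, and in the Tg mice taken alone, where 27.5% fell. The steps of the pathway differed in size. The 6 measured enzymes from HMG-CoA to farnesyl diphosphate had a median of -1.07, the 3 that form squalene and lanosterol had -1.01, and the 8 that turn lanosterol into cholesterol had -0.69.

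Fdps, the synthase of farnesyl diphosphate, was at 12.06, 12.28 and 12.39 in the lowest, median and highest of 7 mice at 10 days. At 4.5 months it was at 10.01, 10.11 and 10.32 in 6 mice. The groups did not overlap, and the gene fell by 2.15 ± 0.06 (adjusted p = 1.4e-22), a level 4.43-fold lower. Tm7sf2, a sterol reductase that acts after lanosterol, was at 10.38, 10.55 and 10.73 at 10 days. It was at 8.20, 8.45 and 8.80 at 4.5 months and fell by 2.06 ± 0.11 (adjusted p = 1.92e-16), again with no overlap. These were the largest decreases of the 17, one before squalene and one after lanosterol.

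Sqle, the squalene epoxidase that catalyses a rate-limiting oxidation, was at 11.99, 12.11 and 12.35 at 10 days and at 10.40, 10.59 and 10.70 at 4.5 months. It fell by 1.57 ± 0.06 (adjusted p = 5.64e-19). Cyp51, the lanosterol demethylase, was at 10.79, 10.99 and 11.27 at 10 days, and at 9.65, 9.70 and 9.88 at 4.5 months. It fell by 1.28 ± 0.07 (adjusted p = 2.27e-16), and each 10-day mouse lay above each 4.5-month mouse for both genes. Hmgcs1, the cytosolic HMG-CoA synthase at the entry of the pathway, was at 14.00, 14.19 and 14.32 and then at 12.76, 12.94 and 13.04. It fell by 1.27 ± 0.05 (adjusted p = 6.17e-20), and its other 3 probe sets changed by -1.45, -1.60 and -1.69.

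The other enzymes up to farnesyl diphosphate moved alike. Mvd, the decarboxylase of mevalonate diphosphate, was at 9.33, 9.63 and 9.75 at 10 days and at 8.22, 8.42 and 8.55 at 4.5 months, and fell by 1.17 ± 0.11. Pmvk, the kinase of phosphomevalonate, was at 9.74, 9.81 and 10.02 and then at 8.64, 8.90 and 9.09, and fell by 0.97 ± 0.09. Mvk, the mevalonate kinase, was at 9.22, 9.37 and 9.58 and then at 8.33, 8.50 and 8.62, and fell by 0.92 ± 0.10. None of these groups overlapped. Idi1, the isomerase of the isoprenoid units, was at 11.11, 11.45 and 11.62 at 10 days and at 10.35, 10.54 and 10.69 at 4.5 months, and fell by 0.88 ± 0.07.

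The remaining steps to lanosterol were those of Fdft1 and Lss. Fdft1, the squalene synthase, was at 11.92, 11.98 and 12.12 at 10 days and at 10.95, 11.07 and 11.19 at 4.5 months, and fell by 0.94 ± 0.05. Lss, which closes the rings of lanosterol, was at 9.46, 9.60 and 9.88 and then at 8.54, 8.66 and 8.76, and fell by 1.01 ± 0.09. Every 10-day mouse lay above every 4.5-month mouse in both.

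After lanosterol the decreases were of unequal size. The sterol dehydrogenase Nsdhl was at 10.92, 10.95 and 11.09 at 10 days and at 10.02, 10.12 and 10.20 at 4.5 months, and fell by 0.87 ± 0.07. Dhcr7, which reduces the last double bond to give cholesterol, was at 10.21, 10.45 and 10.54 and then at 9.41, 9.64 and 9.85, and fell by 0.81 ± 0.08. The desaturase Sc5d was at 10.65, 10.80 and 11.00 and then at 10.07, 10.30 and 10.32, and fell by 0.57 ± 0.08. Smaller decreases were seen for the reductase Hsd17b7, which fell by 0.47 ± 0.08, and for the methyl oxidase Msmo1, which fell by 0.43 ± 0.05. The sterol isomerase Ebp fell by 0.33 ± 0.07, from 9.57, 9.66 and 9.78 to 9.22, 9.36 and 9.51, and in it too the groups did not overlap.

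Other probe sets were at hand for 9 of the enzymes. Of these 14 probe sets 12 had the direction of the one shown, and 11 of the 12 were called. For Sc5d both others changed by 0.08 and 0.22 and were not called, and for Hsd17b7 one changed by -0.67 and one by -0.01, so the decrease of these genes rests on some of their probe sets only.

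**Figure D1:**
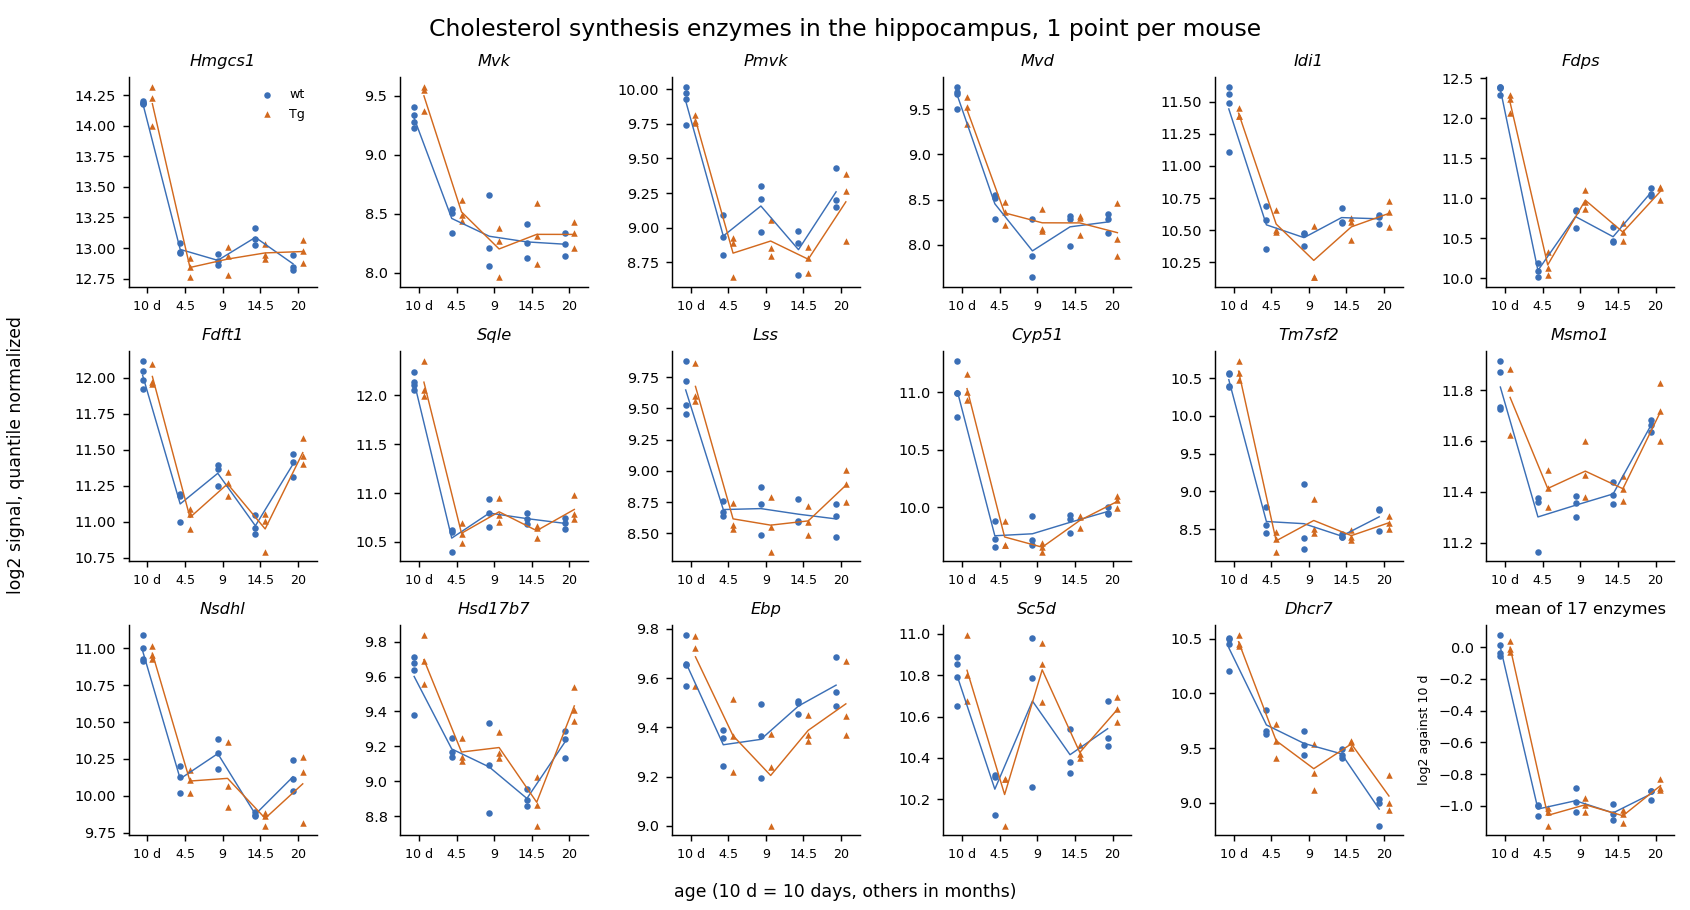
Log2 signal (y axis, a scale of its own in each panel that does not start at 0) of 17 cholesterol synthesis enzymes in each mouse by age (x axis, 10 days and then months), with wt mice as circles, Tg mice as triangles and lines through the group means of 3 mice, or 4 for wt at 10 days. The last panel is the mean of the 17 enzymes against their 10-day mean, and the 10-day mice lie above all older mice in it and in 13 of the 17 gene panels.

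The high level at 10 days stood apart from adult life as a whole. In 13 of the 17 enzymes all 7 mice at 10 days lay above all 24 older mice, a pattern that 12.3% of all genes tested had. It held for 6 of 6 enzymes up to farnesyl diphosphate, for 3 of 3 that make squalene and lanosterol, and for 4 of 8 later ones. The mean of the 17 enzymes against their 10-day level was -1.04 ± 0.050 at 4.5 months, -0.98 ± 0.057 at 9 months, -1.05 ± 0.043 at 14.5 months and -0.90 ± 0.042 at 20 months (SD, n = 6 at each age). The SD at 10 days was 0.047 (n = 7). Counted against the same 10-day mice, 16 enzymes were lower at 9 months (background 37.5%), 17 at 14.5 months (33%) and 15 at 20 months (33%). Sc5d at 9 months, with a change of -0.06, and Msmo1 and Ebp at 20 months, with -0.10 and -0.14, were the exceptions.

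Promoter sequence is printed for the 4 enzymes with the smallest p for this decrease whose promoter stands in the RefSeq table and holds a searched motif. Each run is 300 bases of GRCm38.p6, from 250 before to 50 after the gene's start, written 5′ to 3′ on the strand of the gene. Capitals mark CCAAT and GGGCGG on either strand and, in Hmgcs1, TCACNCCAC, the core of a sterol regulatory element to which SREBP proteins bind.
Hmgcs1, chr13:119690101-119690400, plus strand: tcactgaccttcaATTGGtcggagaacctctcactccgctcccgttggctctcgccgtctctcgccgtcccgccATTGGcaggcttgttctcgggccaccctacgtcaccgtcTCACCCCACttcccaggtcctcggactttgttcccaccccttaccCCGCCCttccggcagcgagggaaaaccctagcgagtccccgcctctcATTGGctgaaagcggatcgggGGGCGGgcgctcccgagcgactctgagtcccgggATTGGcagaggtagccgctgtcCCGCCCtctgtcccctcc
Tm7sf2, chr19:6067801-6068100, minus strand: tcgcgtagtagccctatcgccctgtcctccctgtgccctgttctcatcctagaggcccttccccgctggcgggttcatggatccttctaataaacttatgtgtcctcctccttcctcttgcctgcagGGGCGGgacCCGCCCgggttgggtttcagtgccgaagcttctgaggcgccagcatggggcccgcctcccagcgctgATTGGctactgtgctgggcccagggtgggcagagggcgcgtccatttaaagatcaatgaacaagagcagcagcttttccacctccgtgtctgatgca
Cyp51, chr5:4104648-4104947, minus strand: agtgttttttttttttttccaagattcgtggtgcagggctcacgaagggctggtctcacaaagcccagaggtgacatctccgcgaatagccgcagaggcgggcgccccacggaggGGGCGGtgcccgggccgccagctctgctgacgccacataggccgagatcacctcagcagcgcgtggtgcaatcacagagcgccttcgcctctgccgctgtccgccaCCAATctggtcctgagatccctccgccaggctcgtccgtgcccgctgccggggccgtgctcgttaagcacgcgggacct
Nsdhl, chrX:72918271-72918570, plus strand: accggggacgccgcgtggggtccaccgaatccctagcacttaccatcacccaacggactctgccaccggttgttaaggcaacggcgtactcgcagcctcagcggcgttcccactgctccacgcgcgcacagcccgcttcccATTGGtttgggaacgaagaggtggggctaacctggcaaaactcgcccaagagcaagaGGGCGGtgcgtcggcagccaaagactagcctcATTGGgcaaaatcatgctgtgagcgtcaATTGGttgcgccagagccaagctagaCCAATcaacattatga
Fdps, Sqle, Fdft1, Abcg1 and Npc1 have no entry in that table. The letters TCACNCCAC were found, on both strands searched, in 1.24% of 32851 promoters and among the 27 genes of the list with an entry in Hmgcs1 alone, from base -137 to base -129 before its start. CCAAT was found in 77.8% of the 18 promoters of the 15 enzyme genes with an entry and in 37.4% of all promoters, and GGGCGG in 83.3% and 35.7%. For the 11 promoters of regulators the shares were 45.5% for CCAAT and 72.7% for GGGCGG. For the 8 promoters of uptake, transport and turnover genes they were 37.5% and 62.5%. The motifs as printed do not overlap in these 4 promoters. A match is a description of the letters and not a measured site.

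The regulators went the other way over the same months. Of 5 measured, 4 rose between 10 days and 4.5 months, at the background of 31.2%, and the median change was 0.43. Srebf2, which encodes the factor most tied to cholesterol synthesis, was at 10.23, 10.41 and 10.52 in 7 mice at 10 days and at 10.58, 10.89 and 11.02 in 6 mice at 4.5 months. It rose by 0.44 ± 0.07 (adjusted p = 1.4e-06), so its transcript was higher at the age at which all 17 enzymes were lower. Srebf1, whose product also drives fatty acid synthesis, was at 9.39, 9.55 and 9.64 and then at 9.77, 9.91 and 10.16, and rose by 0.43 ± 0.08 (adjusted p = 4e-05). Neither gene had overlapping groups.

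The anchors differed from each other. Insig2 rose by 0.43 ± 0.07 (adjusted p = 2.44e-06) by 4.5 months, and its level went from 9.68, 9.94 and 10.12 to 10.27, 10.38 and 10.47. Insig1, itself a target of the SREBP proteins, was at 10.01, 10.16 and 10.43 at 10 days and at 9.70, 10.08 and 10.38 at 4.5 months. Those groups overlapped, and its change of -0.15 ± 0.09 was not called (adjusted p = 0.148). Without replicate 1 of the Tg mice of 10 days or replicate 2 of the wt mice of 4.5 months it was -0.21 and -0.23, and was called. At 9 months Insig1 was at 9.30, 9.61 and 9.73, below every 10-day mouse, and had fallen by 0.64 (adjusted p = 4.3e-07), while Insig2 had risen by 0.94 (adjusted p = 5.3e-13) and by 0.37 and 0.67 on its other 2 probe sets. Scap, the escort, rose by 0.20 ± 0.05 by 4.5 months (adjusted p = 0.001).

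Among the genes of uptake, transport and turnover, 4 of 7 rose by 4.5 months and 2 fell, at the backgrounds of 31.2% and 35.5% given above, with a median change of 0.44. Cyp46a1, the neuronal hydroxylase that lets cholesterol leave the brain, was at 9.81, 10.02 and 10.35 in the 10-day mice. At 4.5 months it was at 11.67, 11.98 and 12.32, so that the groups were more than 1 log2 unit apart at their nearest. It rose by 1.91 ± 0.07 (adjusted p = 3.19e-20), a level 3.77-fold higher. Abcg1, a pump that loads sterol onto lipoproteins, was at 8.71, 8.91 and 9.21 and then at 9.96, 10.04 and 10.17, and rose by 1.13 ± 0.10 (adjusted p = 1.85e-11). Npc1, which exports cholesterol from late endosomes, rose by 0.54 ± 0.08, and Lrp1, a receptor for particles with apolipoprotein E, by 0.44 ± 0.06.

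In Srebf1, Insig2, Abcg1, Npc1 and Cyp46a1 all 7 mice at 10 days lay below all 24 older mice, a pattern that 9.09% of all genes tested had. Abca1, the pump that gives cholesterol to poor lipoproteins, fell over the same time. It was at 11.12, 11.45 and 11.62 in the mice of 10 days and at 10.65, 10.72 and 10.90 at 4.5 months, and it fell by 0.69 ± 0.08 (adjusted p = 7.12e-09). Npc2, the soluble partner of Npc1 in the lysosome, fell by 0.41 ± 0.08 (adjusted p = 3.87e-05). Npc2 was back at 11.43, 11.50 and 11.81 at 9 months, beside 11.39, 11.48 and 11.71 at 10 days. Apoe, the main apolipoprotein of the brain, was at 13.84, 13.99 and 14.14 at 10 days and at 13.89, 14.01 and 14.06 at 4.5 months, with a change of -0.01 ± 0.04 (95% interval from -0.09 to 0.08).

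**Figure D2:**
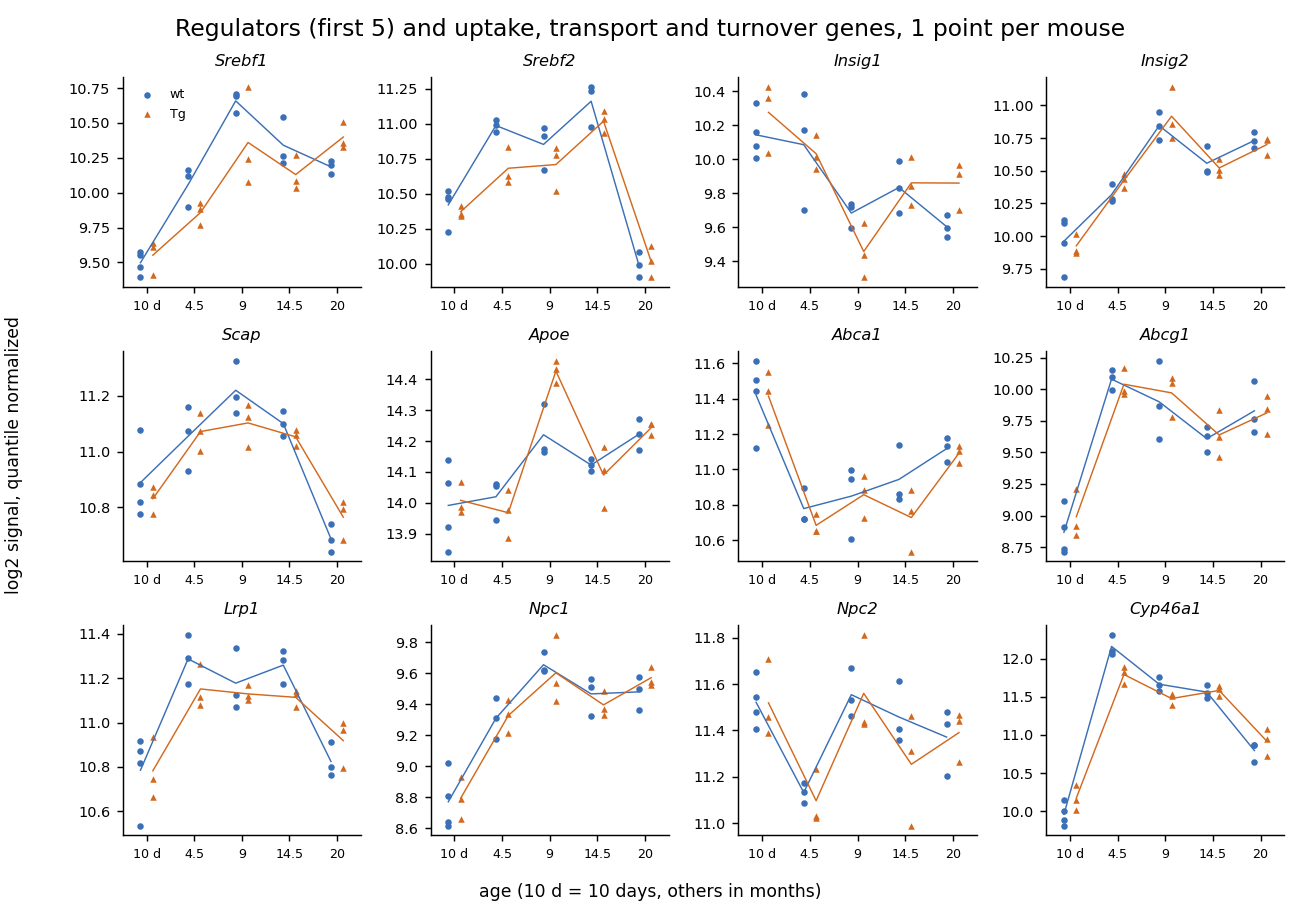
Log2 signal (y axis, a scale of its own in each panel that does not start at 0) of 5 regulators and 7 genes of uptake, transport and turnover in each mouse by age (x axis, 10 days and then months), with wt mice as circles, Tg mice as triangles and lines through the group means. Srebf2 lies at 10.13 or lower in all 6 mice at 20 months, and Cyp46a1 is lowest at 10 days and highest at 4.5 months.

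Other features of the mice and arrays changed between 10 days and 4.5 months along with these genes. Beside 31.2% of all genes that rose and 35.5% that fell, 9 of 9 myelin markers rose, with a median of 3.03, and their summed signal went from between 6789 and 13003 to between 56584 and 77777. Of the immature neuron markers 6 of 6 fell, with summed signals from 50896 to 52816 before and from 7349 to 8300 after. All 4 markers of dividing cells and all 3 of oligodendrocyte precursors fell as well. Of 8 neuron markers 8 rose, of 8 astrocyte markers 5 rose and 3 fell, and of 10 microglia markers 8 rose and 2 fell. The log2 ratio of the 3' and 5' Gapdh control probe sets was -0.434 to -0.191 at 10 days and -0.0782 to 0.0182 at 4.5 months (two-sided exact permutation test, p = 0.00117). The mean of the spiked-in controls was 11.49 to 11.80 and then 11.92 to 12.33 (exact permutation test, p = 0.000583, the smallest that 7 against 6 arrays can give). The actin ratio overlapped. The part of each of these in the changes of the cholesterol genes was not tested. In whole tissue, fewer cells of a type and less RNA per cell cannot be told apart. The Gapdh ratio was -0.411 to -0.140 at 9 months, -0.398 to -0.352 at 14.5 months and -0.463 to -0.433 at 20 months.

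From 4.5 to 20 months the enzymes did not move together. Of 17, 8 rose and 1 fell, at a background of 22.4% of genes that rose and 19.9% that fell, and 8 were not called. Their median change was 0.15, beside 0.03 over all genes tested. This comparison and the earlier one share the 4.5-month mice, so they are not independent and each is given by its own levels. In wt mice alone 6 of the 29 genes rose and 6 fell (backgrounds 15.8% and 15.4%), and in Tg mice alone 10 rose and 4 fell (12.1% and 12.7%).

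Fdps was at 10.01, 10.11 and 10.32 at 4.5 months and at 10.98, 11.08 and 11.14 at 20 months. It rose by 0.95 ± 0.06 (adjusted p = 2.43e-13), the largest increase of the 29 genes, and stayed below every 10-day mouse. Its path was not even, with 10.62, 10.86 and 11.10 at 9 months and 10.45, 10.52 and 10.69 at 14.5 months. Fdft1 rose by 0.36 ± 0.05, Sc5d by 0.35 ± 0.09, Pmvk by 0.34 ± 0.09, Msmo1 by 0.33 ± 0.05 and Cyp51 by 0.26 ± 0.07. The other probe sets of Sc5d changed by -0.39 and 0.12 and those of Cyp51 by 0.22 and 0.03, and none of these was called. Over the enzymes, 11 of 14 other probe sets had the direction of the one shown (4 called) and 3 the opposite (0 called). Sqle rose by 0.20 ± 0.06, and without replicate 3 of the wt mice of 4.5 months or replicate 1 of the Tg mice of 20 months its change of 0.16 was not called. Ebp rose by 0.19 ± 0.07 (adjusted p = 0.0468), and its call was lost in 16 of the 31 fits that each left out 1 mouse. The 8 enzymes that were not called ran from -0.21 for Mvd to 0.15 for Hsd17b7 and Tm7sf2, and 2 of the other probe sets of Hmgcs1 rose by 0.25 and 0.34 and the other one of Idi1 by 0.49. Dhcr7 alone among the enzymes fell. It was at 9.41, 9.64 and 9.85 at 4.5 months and at 8.79, 9.00 and 9.26 at 20 months, without overlap, and fell by 0.64 ± 0.08 (adjusted p = 1.02e-07).

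Srebf2 had the clearest change of the regulators late in life. It was at 10.58, 10.89 and 11.02 at 4.5 months, at 10.52, 10.80 and 10.97 at 9 months and at 10.93, 11.06 and 11.26 at 14.5 months. At 20 months it was at 9.90, 10.01 and 10.13, and those 6 mice lay below all 25 other mice of the study, which 0.989% of all genes tested showed. It fell by 0.83 ± 0.07 from 4.5 to 20 months (adjusted p = 5.4e-11) and by 1.08 ± 0.07 from 14.5 to 20 months (adjusted p = 3.53e-13), a level 2.12-fold lower. Its other probe set fell by 0.99 and 1.24 over the same spans. From 14.5 to 20 months Srebf2 fell by 1.17 in wt mice and by 1.00 in Tg mice.

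Scap fell with it, from 11.02, 11.07 and 11.15 at 14.5 months to 10.64, 10.71 and 10.82 at 20 months. The decrease was 0.35 ± 0.05 (Scap fell by 0.35, adjusted p = 5.84e-06) and the groups did not overlap. Insig1 fell by 0.33 ± 0.09 from 4.5 to 20 months (adjusted p = 0.00594). Srebf1 rose by 0.33 ± 0.08 over that span, though its highest level was at 9 months. Insig2 rose by 0.34 ± 0.07, and by 0.38 and 0.36 on its other probe sets. Counted from 9 to 20 months instead, Srebf1 fell by 0.22 (adjusted p = 0.042), and the probe sets of Insig2 disagreed. The one shown changed by -0.17 and was not called, and the others rose by 0.43 (adjusted p = 0.00027) and 0.58 (adjusted p = 9.1e-06). By the probe sets shown, 0 of 5 regulators rose and 3 fell from 9 to 20 months, at backgrounds of 21.7% and 17.9%, and the 0 rests on that one probe set of Insig2. At an unadjusted p under 0.05 in limma 4 of the 5 changed in either direction. The share of all genes at that threshold is not given here, so nothing is read from that count.

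Cyp46a1 went back part of the way that it had risen. It was at 11.67, 11.98 and 12.32 at 4.5 months, at 11.39, 11.56 and 11.76 at 9 months, at 11.48, 11.58 and 11.65 at 14.5 months and at 10.65, 10.87 and 11.08 at 20 months. It fell by 1.12 ± 0.07 from 4.5 to 20 months (adjusted p = 1.23e-13), and the 20-month mice lay below all 4.5-month and all 14.5-month mice while still above all 10-day mice. Lrp1 fell by 0.35 ± 0.06 from 4.5 to 20 months (adjusted p = 6.35e-05) and was at 10.76, 10.86 and 11.00 at 20 months, beside 10.53, 10.82 and 10.93 at 10 days. Abca1 rose by 0.37 ± 0.08, Npc2 by 0.27 ± 0.08, Apoe by 0.24 ± 0.04 and Npc1 by 0.21 ± 0.08. From 9 to 20 months Npc2, Apoe and Npc1 changed by -0.18, -0.09 and -0.10 and were not called, so their direction turned with the starting age. The call for Npc1 (adjusted p = 0.0438) was lost in 9 of the 31 fits that each left out 1 mouse. Abcg1 changed by -0.24 ± 0.10 and was not called (adjusted p = 0.057; called in 6 of those 31 fits), while its dimmer probe set fell by 0.59 (adjusted p = 0.0038).

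Several genes changed direction on the way from 4.5 to 20 months. From 4.5 to 9 months 9 of the 29 genes rose and 5 fell, at backgrounds of 20.6% and 24.3%, and from 9 to 14.5 months 5 rose and 12 fell, at 26.3% and 21.9%. The steps share the 9-month mice and are not independent, and the counts are by the probe sets shown. Hmgcs1 rose by 0.12 in the second step on the probe set shown. Another of its probe sets rose by 0.62 and then fell by 0.65 (both called), and the others changed by 0.37 (called) and 0.08 (not called) in the second step. A dimmer probe set of Cyp51 fell by 0.49 and then rose by 0.40 (both called). Srebf1 rose by 0.55 ± 0.08 in the first step and fell by 0.27 ± 0.08 in the next. Insig1 fell by 0.49 ± 0.09 and rose by 0.28 ± 0.09. Insig2, on the probe set shown, rose by 0.51 ± 0.07 and fell by 0.34 ± 0.07, but its other probe sets went the other way in both steps, with -0.05 and 0.21 on one (neither called) and -0.22 and 0.25 on the other (both called), so its path between these ages is not settled. Fdps rose by 0.74 ± 0.06 and fell by 0.33 ± 0.06, and Sc5d rose by 0.51 ± 0.09 and fell by 0.33 ± 0.09, while a dim probe set of Sc5d changed by -0.21 and 0.56. Apoe was at 14.16, 14.35 and 14.46 at 9 months, rose by 0.33 ± 0.04 up to there and fell by 0.22 ± 0.04 by 14.5 months.

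Of the 29 genes, 14 rose and 6 fell from 4.5 to 20 months, beside 22.4% and 19.9% of all genes tested. Under a stricter rule, a 1.3-fold change and an adjusted p up to 0.01, 1 rose and 3 fell over that span. The share of all genes under the stricter rule is not given here, so nothing is read from those counts. From 9 to 20 months, at an adjusted p under 0.05 without a fold limit, 7 rose and 6 fell (21.7% and 17.9%). Without overlap between the 6 mice of each age, 8 genes were higher at 20 months (background 11.8%) and 5 lower (background 12.2%), and between 14.5 and 20 months 5 were higher (12.1%) and 5 lower (11.3%). In both pairs of ages the lower genes were Srebf2, Cyp46a1, Dhcr7, Scap and Lrp1. Between 14.5 and 20 months 8 rose and 5 fell by the test, beside 18.3% and 15.3% of all genes tested, and those that fell were again these 5. Cyp46a1 fell by 0.72 ± 0.07, Dhcr7 by 0.49 ± 0.08 and Lrp1 by 0.32 ± 0.06 over that step, and for Lrp1 the other, dim probe set changed by 0.52 and was not called. Fdps rose by 0.53 ± 0.06, Fdft1 by 0.48 ± 0.05, Hsd17b7 by 0.44 ± 0.08 and Pmvk by 0.42 ± 0.09. Over the members, 14 of 23 other probe sets had the direction of the one shown in this step (6 called) and 9 the opposite (4 called), among them 5 of the 6 of the transport genes. Abca1 rose by 0.27 on the probe set shown, and a dim one fell by 0.60 (adjusted p = 0.036).

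**Figure D3:**
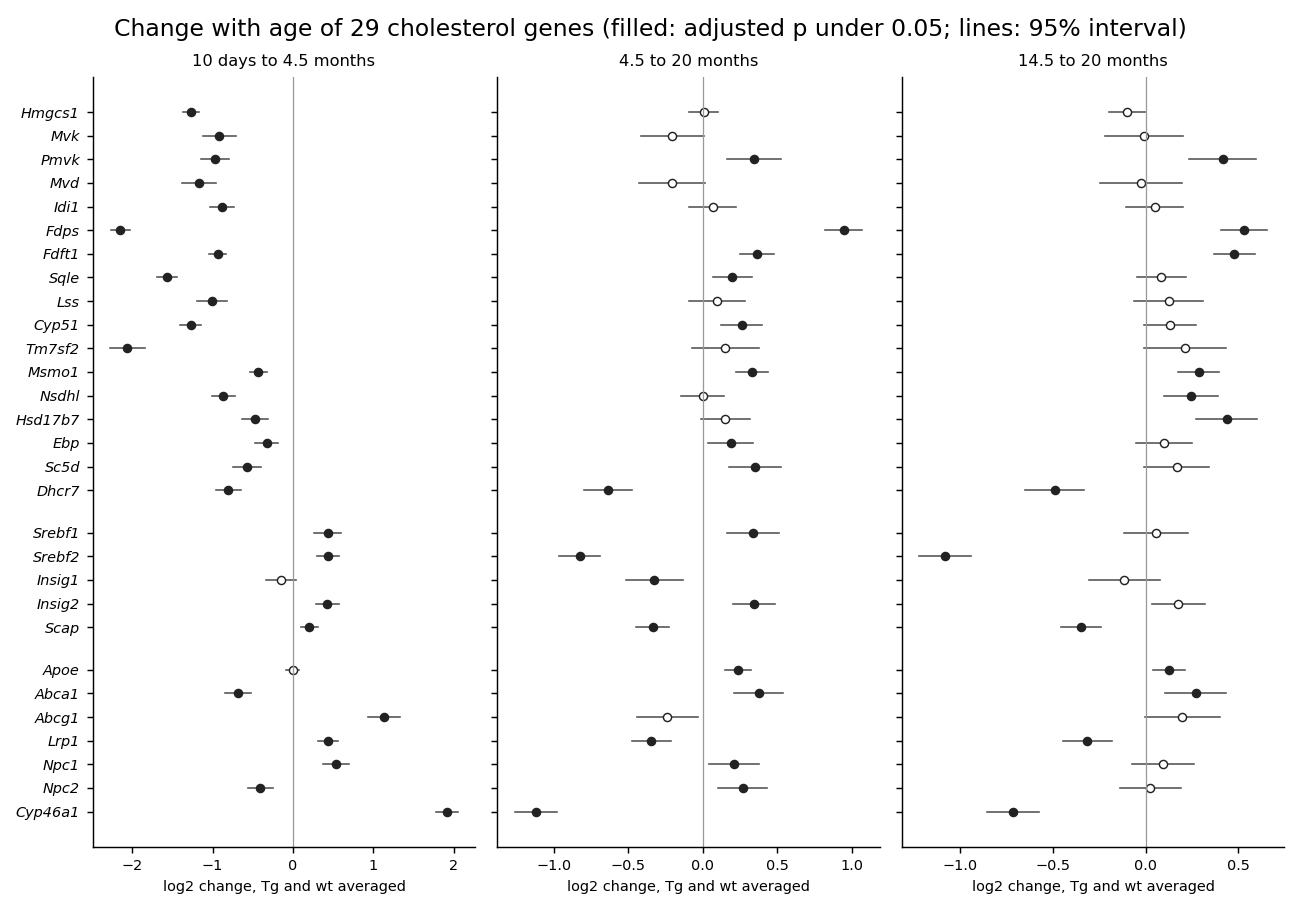
Log2 change (x axis, Tg and wt averaged, with a scale of its own in each panel) of each of 29 genes (y axis, in the order enzymes, regulators, and uptake, transport and turnover) over 3 spans of age, with the 95% interval as a line and a filled point for an adjusted p under 0.05. All 17 enzymes lie left of 0 in the first panel, 8 are filled to the right of 0 in the second, and Srebf2 has the largest decrease in the third.

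Arrays and cell markers also moved late in life. The actin 3' to 5' log2 ratio was 0.315 to 0.399 at 14.5 months and 0.507 to 0.552 at 20 months, and the spiked-in controls were at 11.40 to 11.51 and 11.64 to 11.96. At 9 months the actin ratio was 0.709 to 0.963, above every other age. The Gapdh ratio was -0.0782 to 0.0182 at 4.5 months, also above every other age, beside -0.463 to -0.433 at 20 months. Both main spans of age use the 4.5-month mice. From 4.5 to 20 months 5 of 8 neuron markers fell, none of the 9 myelin markers was called, with a median of 0.15, and 6 of 10 microglia markers rose, beside 22.4% of all genes that rose and 19.9% that fell. The summed signal of the neuron markers was 105535 to 116544 at 4.5 months and 85655 to 88538 at 20 months. The median change of 8 astrocyte markers was 0.03. The part of these in the late changes was not tested.

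Of 48 other genes of cholesterol handling, 37 were measured. Between 10 days and 4.5 months 14 rose and 12 fell, beside 31.2% and 35.5% of all genes tested, with a median change of 0.08. The 4 with the smallest p were Acat1, the mitochondrial thiolase that makes acetoacetyl-CoA, which fell by 1.34 ± 0.05, Clu, the lipoprotein clusterin, which rose by 0.97 ± 0.04, Gramd1b, a carrier of sterol from the plasma membrane, which rose by 1.01 ± 0.07, and Scarb1, a lipoprotein receptor, which fell by 0.95 ± 0.07. From 4.5 to 20 months 9 rose and 8 fell, beside 22.4% and 19.9% of all genes tested. Both pairs of counts are near the background, and nothing is read from them. Here the 4 were Abcg4, a sterol pump of the Abcg1 family, which fell by 0.84 ± 0.06, Acat1, which rose by 0.47 ± 0.05, Gramd1b, which fell by 0.65 ± 0.07, and Abca2, a lipid transporter of oligodendrocytes, which fell by 0.58 ± 0.09.

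No gene of the list differed between Tg and wt mice by the tests. At an adjusted p under 0.05 in limma 0 of 29 genes differed at 10 days, at 4.5, 9, 14.5 or 20 months, or on the mean of the ages, where 0.00779%, 0%, 2.99%, 0%, 0.0389% and 0.0156% of all genes tested were called. At an unadjusted p under 0.05 the counts were 2, 3, 4, 0 and 1 at the 5 ages and 2 on the mean, beside 5.65%, 6.73%, 18.1%, 0.942%, 4.84% and 8.50% of all genes tested. The F-test of the genotype over 5 ages called 0 of 29 (0.195% of all genes), and that of genotype by age 0 of 29 (0.0623%). At an unadjusted p under 0.05 each F-test had 3 of 29, beside 9.28% and 8.38% of all genes tested. A difference that misses the threshold with 3 mice a group is not shown to be absent, and the intervals given with the genes show the sizes that these mice allow.

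Cyp46a1 had the lowest p at a single age, at 4.5 months. The 3 wt mice were at 12.06, 12.11 and 12.32 and the 3 Tg mice at 11.67, 11.82 and 11.89. The groups did not overlap, and Tg minus wt was -0.37 ± 0.10 (95% interval from -0.57 to -0.17, unadjusted p = 0.000814, adjusted p = 0.522). At 10 days the sign was the other way, 0.21 ± 0.09, with 9.81, 9.88, 10.00 and 10.14 in wt mice and 10.02, 10.15 and 10.35 in Tg mice. The rise of Cyp46a1 by 4.5 months was 2.20 ± 0.09 in wt and 1.62 ± 0.10 in Tg mice, and the difference of these changes was -0.58 ± 0.13 (adjusted p = 0.284, with 0% of all genes tested called).

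Srebf2 at 4.5 months was at 10.94, 10.99 and 11.02 in wt mice and at 10.58, 10.63 and 10.83 in Tg mice, a difference of -0.30 ± 0.10 (95% interval from -0.50 to -0.11, adjusted p = 0.635). Apoe at 9 months was at 14.16, 14.18 and 14.32 in wt mice and at 14.39, 14.43 and 14.46 in Tg mice. Its difference of 0.21 ± 0.06 came nearest to the threshold of the 29 genes (95% interval from 0.08 to 0.33, adjusted p = 0.055), and the call was gained when any of 4 single mice was left out or the replicate number was made a block. Srebf1 at 9 months was at 10.57, 10.69 and 10.71 in wt mice, and its Tg mice were at 10.08, 10.24 and 10.76, so that 1 Tg mouse lay above and 2 below the wt mice. Its difference was -0.30 ± 0.12 (adjusted p = 0.165), and without that Tg mouse, replicate 2, it was -0.50 and was called.

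**Figure D4:**
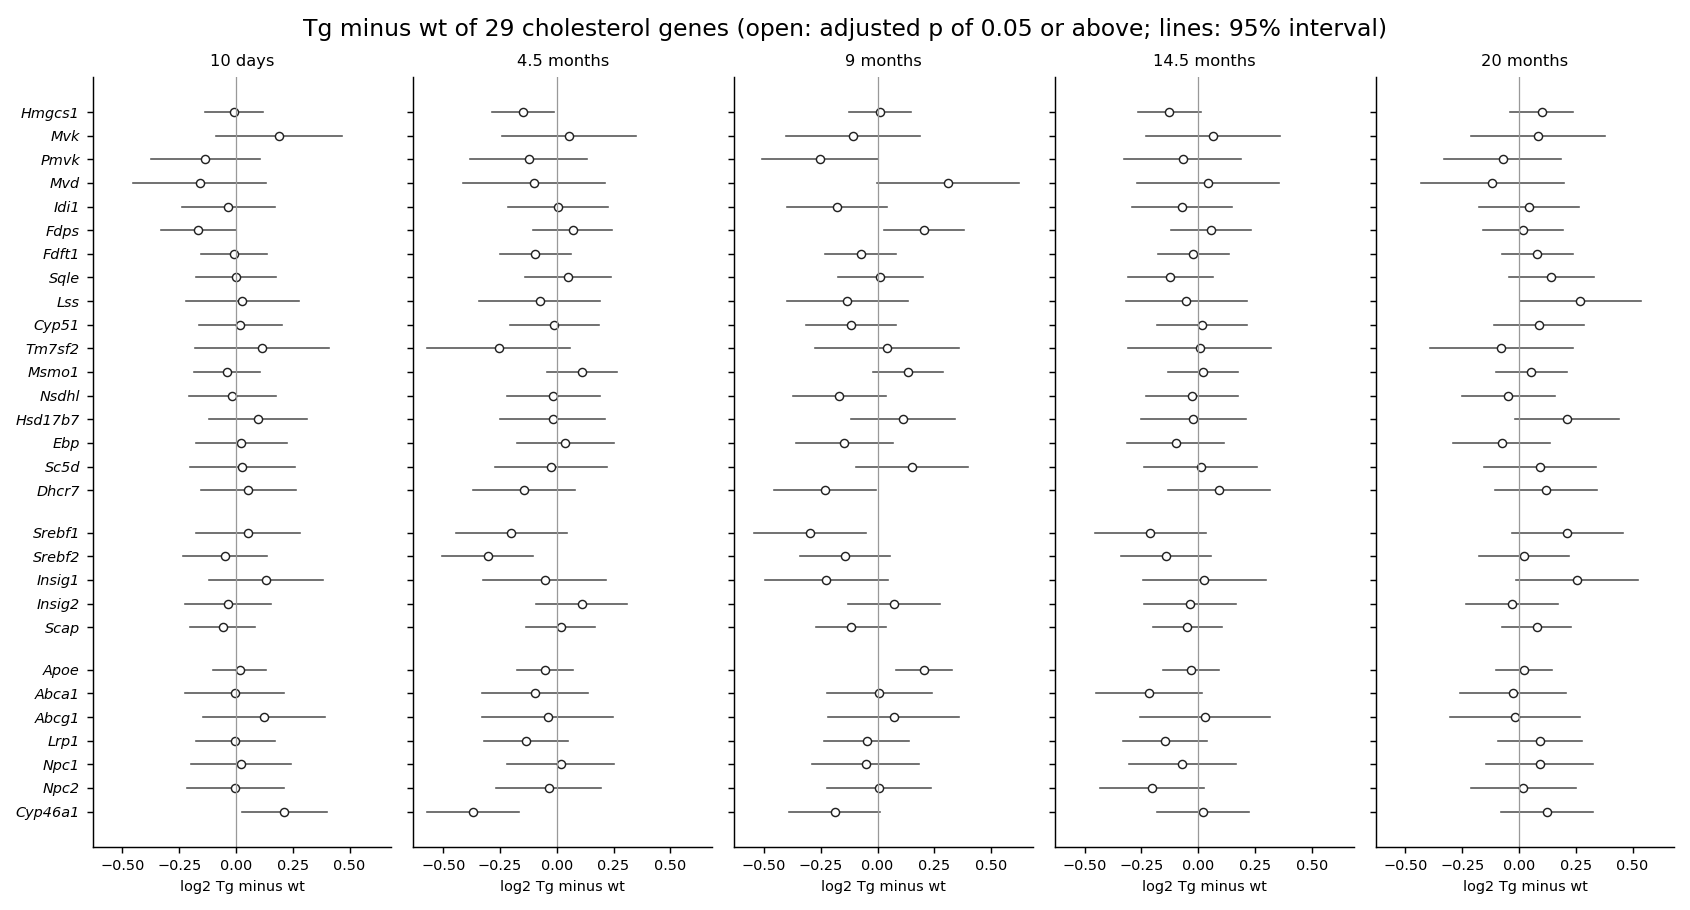
Tg minus wt on the log2 scale (x axis, the same in each panel) for each of 29 genes (y axis) at 5 ages, with the 95% interval as a line and an open point for an adjusted p of 0.05 or above. Every point is open, and the lowest value is -0.37 for Cyp46a1 at 4.5 months.

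Age effects were called in both genotypes. No difference between the genotypes in a change with age was called, which does not show that the changes were equal. The F-test over 5 ages called 29 of 29 genes in wt mice and 29 of 29 in Tg mice, where 75.6% and 74% of all genes tested were called. Over the 29 genes the change from 10 days to 4.5 months in Tg mice and that in wt mice had a Pearson r of 0.986, with the same sign in 28, and for 4.5 to 20 months r was 0.950 and the sign was the same in 26. These are values across genes of arrays normalized together, and genes are not replicates. Fdps fell by 2.26 ± 0.08 in wt and 2.03 ± 0.09 in Tg mice by 4.5 months, and Tm7sf2 fell by 1.88 ± 0.14 and 2.25 ± 0.15. Cyp46a1 fell by 1.37 ± 0.10 in wt and by 0.88 ± 0.10 in Tg mice from 4.5 to 20 months, a difference of 0.49 ± 0.14 (adjusted p = 0.615, with 0.00779% of all genes tested called).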

How the data were processed

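Hippocampal total RNA of 31 male C57BL/6 mice, Glud1 Tg or wt at 5 ages, was measured by the authors on Affymetrix arrays. The deposited values are linear signal intensities that the authors made with MAS5 per the labels, scaled so that the trimmed mean of each array was 500. The version and settings are not given in the sources used here, and the study's methods describe RMA values, which were not used here. Array medians ran from 91.4 to 140.

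Control probe sets, 64 of 45101, were left out. The others were turned to log2 and quantile normalized, and 26877 were tested, those above their array's median in 3 arrays or more. Symbols were matched through gene identifiers, which brought in older names of Msmo1 and Sc5d. A gene is shown by its probe set, listed for that gene alone, with the highest mean.

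Limma 3.58.1 in R 4.3.3 fitted a mean for each of the 10 groups with a shared spread, moderated with trend and robustly, with Benjamini-Hochberg adjustment over all probe sets that were tested. Changes with age are averaged over the genotypes unless one is named. Array quality was compared by exact permutation tests. The replicate numbers of Tg and wt mice were not treated as pairs. Same-numbered mice of an age deviated together with correlations from -0.112 to 0.055, which does not show that no pairing existed. The labels name no litters or batches. The p values measure a change against the spread within groups, where each array is 1 mouse. The array measures given above differed between ages. Any difference in the handling of arrays between ages cannot be told apart from age here, and the p values do not cover it. The model was tested on simulated data for 10 days to 4.5 months over 26877 probe sets, of which 50 were changed at each size. It recovered 22% of changes of 0.3, 54% of 0.5, 84% of 1 and 96% of 2 on the log2 scale. In the data far more was called in that span, with 31.2% of genes higher and 35.5% lower, and the adjustment is then less strict. These shares check the code and do not describe the recovery in the data. SAM, Cyber-T and EDGE, named in the study's methods, were not run.

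The 32 genes, the other lists and the rules for named genes were chosen with earlier results of these data known. All 32 genes are reported, with values for those called, and of the other cholesterol genes the 4 with the smallest p in each span of age. Promoters are RefSeq's. Alternatives were no quantile normalization, 50 added before log2, no filter on low values or a stricter one (at the 60th percentile of the means), a moderation that ignores the signal level, a replicate block, each mouse left out, the median over a gene's probe sets, a fold of 1.3 with an adjusted p of 0.01, other ages, each genotype alone and the arrays of an age alone.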

Additional observations from a re-analysis of the deposited data

Results flagged for a closer look

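Fdps in wt mice at 10 days had 1 mouse far from the other 3. It was at 12.28, the nearest was at 12.38 and the highest at 12.39, and the gap took up 0.854 of the range of the 4. Groups of 4 were found for each of 29 genes at that age only, and chance alone gives about 1 such group in 20. All 7 mice at 10 days remained above all older mice for this gene. No difference between the genotypes in a change with age was called over 9 spans of age, where the lowest adjusted p was 0.137.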

How the results depend on the processing

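The count of 17 enzymes that fell by 4.5 months was within 1.5 times of that under every alternative run, and it was 17 whichever mouse was left out. Regulators that rose stayed at 4, and transport genes at 4 up and 2 down, without any single mouse. Members that rose from 4.5 to 20 months ranged from 11 to 14 without a mouse, and those that fell from 6 to 7. Members that differed between Tg and wt at an age ranged from 0 to 1, and those in the F-tests were 0. That 1 gene was Apoe at 9 months with the replicate block (count 1) or without a Tg or wt mouse of 10 days (Tg replicate 1, wt replicates 3 and 4) or wt replicate 2 at 9 months, and Srebf1 at 9 months without Tg replicate 2. The block moved no other count by over 1.5 times, and the main fit did not use it.

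A fold of 1.3 with an adjusted p of 0.01 left 1 member higher and 3 lower at 20 than at 4.5 months. The wt mice alone gave 6 higher, and 9 months in place of 4.5 months gave 7. With 9, 14.5 or 20 months in place of 4.5 months (the last 2 chosen after seeing the data) 1 transport gene was lower than at 10 days, and at 20 months 2 regulators were higher. Against 10 days Apoe then changed by 0.32 at 9, 0.11 at 14.5 and 0.23 at 20 months, Npc2 by 0.037 at 9 months, and Srebf2 and Scap by -0.39 and -0.13 at 20 months. From 9 to 20 months the changes were -0.040 for Sqle, -0.16 for Sc5d, -0.22 for Srebf1, 0.16 for Insig1, -0.17 for Insig2, -0.091 for Apoe, -0.10 for Npc1 and -0.18 for Npc2. With the median over a gene's probe sets Sc5d changed by 0.078 from 10 days to 4.5 months, and Hsd17b7, Abca1 and Lrp1 by -0.056, -0.14 and 0.10 from 14.5 to 20 months. These probe sets target other parts of a gene, and the cause was not tested. Without quantile normalization the median of all probe sets moved by 0.14 from 10 days to 4.5 months, against 0.01 with it.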
